A study of Mus musculus with 6 samples.

Results

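The astrocyte marker genes described here were Gfap, S100b, Slc1a2, Slc1a3, Glul, Aqp4, Gja1, Aldoc, Aldh1l1 and Apoe. These 10 genes, of 37273 annotated genes and 22367 protein-coding genes, were chosen by name as textbook markers of astrocytes. For each, the reads over the gene body and over the 5 kb upstream of the gene were counted in all 6 libraries of a chromatin immunoprecipitation sequencing (ChIP-seq) study of acetylation of lysine 5 of histone H4 (H4K5ac) in the mouse hippocampus. The study compared mice trained in contextual fear conditioning (FC), which received a foot-shock in an unfamiliar context on 2 consecutive days, with control mice (CON) placed in the context without a shock. All mice were C57/BL6 and 6 months old, and hippocampi were taken 1 h after the memory test on day 3. For each group the files held 1 H4K5ac-ChIP library, 1 IgG-IP library, made with a nonspecific antibody, and 1 input library of chromatin that was not precipitated. The study used 3 hippocampal samples per group, but with 1 library per group and antibody the spread between mice could not be measured, so no test between the groups was possible and the differences below compare libraries.

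Astrocytes are the glial cells that take up transmitter released at synapses, buffer potassium and water, and supply neurons with metabolites. They are a minority of the cells of the hippocampus, and the markers are in general expressed more weakly in neurons than in astrocytes. H4K5ac is an acetyl mark placed on histone H4 in open chromatin, and it is found over the promoters and the bodies of transcribed genes. The libraries were made from whole hippocampus and did not separate cell types, so the reads over these genes cannot be assigned to astrocytes. A mark carried by fewer astrocytes, less of the mark in each astrocyte and a mark in other cells cannot be told apart.

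The H4K5ac-ChIP libraries held 31605738 aligned reads in FC and 35962226 in CON, the input libraries 45673239 and 35493806, and the IgG-IP libraries 14549689 and 16491741. Between 11.5% and 17.8% of the reads of a library repeated another read's position and strand. Densities are given as reads per kb of region per 1000000 aligned reads of the library (RPKM). Intervals are exact 95% intervals and cover counting error only, not the spread between mice. Since the IgG-IP libraries were the shallowest, they set the width of most intervals on ratios, above all at the short genes Apoe and Aldoc.

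Positions are in the mm9 (NCBIM37) build. Slc1a2 (chr2:102498816-102630941, plus strand) at 132.126 kb, Aldh1l1 (chr6:90436421-90550197, plus strand) at 113.777 kb and Slc1a3 (chr15:8584124-8660764, minus strand) at 76.641 kb were the long members. Gfap (chr11:102748650-102762226, minus strand), Gja1 (chr10:56097106-56110225, plus strand), Glul (chr1:155747074-155756853, plus strand) and S100b (chr10:75716598-75723904, plus strand) spanned between 7.307 and 13.577 kb, and Aqp4, whose position is given with its values, 14.291 kb. Aldoc (chr11:78136470-78141283, plus strand) and Apoe (chr7:20281458-20284515, minus strand) were the shortest, at 4.814 and 3.058 kb. In 2 genes the annotated start lay away from the start of the longest coding transcript, by 64.362 kb in Aldh1l1 and 3.781 kb in Gfap, and for these the 5 kb before the gene is not the promoter of the coding transcript. Reads could not be assigned between members and genes that overlap them, which were Gm17536 in Gfap, Gm13872 in Slc1a2, Gm15756 in Aldh1l1, Dip2a at S100b, and 5830403L16Rik, A930039A15Rik and Gm11074 in Glul. The upstream regions of Gfap, Aldoc and Apoe also reached into Kif18b, Spag5 and Tomm40.

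The members differed in the density of CpG dinucleotides at the start of their coding transcript. In the kb centred on that start, the ratio of observed to expected CpG was 0.810 in Slc1a2 and 0.697 in Glul, the only members at or above 0.6, a level reached by 46.4% of 22362 protein-coding promoters. It was lowest in S100b, at 0.169, and Aldoc, at 0.228, and lay between 0.294 and 0.554 in the other 6. The 250 bases before the coding start of these 4 extremes are shown 5′ to 3′ on the gene's strand, from the NCBIM37 genome, because the acetylation around the start is described below beside this contrast. Capitals mark the CpG sites, of which there are 16 in Glul (chr1:155746824-155747073), 10 in Slc1a2 (chr2:102498566-102498815), 2 in S100b (chr10:75716348-75716597) and 1 in Aldoc (chr11:78136220-78136469), against a median of 9 over all promoters.
Glul: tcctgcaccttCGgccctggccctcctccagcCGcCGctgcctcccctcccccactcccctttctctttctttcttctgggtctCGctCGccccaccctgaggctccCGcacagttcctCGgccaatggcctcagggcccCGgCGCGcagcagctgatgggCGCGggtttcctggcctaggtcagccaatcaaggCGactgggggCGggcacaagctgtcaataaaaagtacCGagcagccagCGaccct
Slc1a2: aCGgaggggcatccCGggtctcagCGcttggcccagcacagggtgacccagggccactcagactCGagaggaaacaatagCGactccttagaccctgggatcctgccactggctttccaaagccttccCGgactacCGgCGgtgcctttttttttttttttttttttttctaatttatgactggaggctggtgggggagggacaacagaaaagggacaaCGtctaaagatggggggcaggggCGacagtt
S100b: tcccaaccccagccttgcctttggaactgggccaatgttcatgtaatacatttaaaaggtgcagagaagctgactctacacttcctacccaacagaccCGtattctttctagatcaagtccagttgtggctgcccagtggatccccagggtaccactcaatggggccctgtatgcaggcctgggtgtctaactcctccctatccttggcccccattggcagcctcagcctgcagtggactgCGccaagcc
Aldoc: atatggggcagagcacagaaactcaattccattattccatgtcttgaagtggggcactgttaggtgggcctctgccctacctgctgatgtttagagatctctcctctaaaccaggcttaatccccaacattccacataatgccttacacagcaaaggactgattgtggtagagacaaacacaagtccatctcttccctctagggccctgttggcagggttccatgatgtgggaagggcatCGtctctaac

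Over the gene body, H4K5ac-ChIP density was above that of the IgG-IP library of the same group at 8 of 10 markers in CON and 9 of 10 in FC, as it was at 75.6% and 77.2% of protein-coding genes. S100b had the highest density in both groups, and Aqp4 and Gja1 the lowest. The median protein-coding gene had 0.541 RPKM in the CON H4K5ac-ChIP library and 0.549 in FC.

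Gfap encodes the intermediate filament of astrocytes and S100b a calcium-binding protein that they release. Over the body of Gfap, H4K5ac-ChIP density was 0.842 RPKM in CON and 0.760 in FC, against 0.402 and 0.390 in IgG-IP and 0.434 and 0.660 in input. Over S100b it was 1.03 in CON and 1.12 in FC, against 0.456 and 0.433 in IgG-IP and 0.428 and 0.626 in input. Both genes stood clear of IgG-IP in both groups, and S100b lay above 96.3% of protein-coding genes in each H4K5ac-ChIP library. At both genes the FC input library was higher than the CON input library.

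Slc1a2 and Slc1a3 encode the glutamate transporters that clear the synapse, and Glul encodes glutamine synthetase, which turns the glutamate they take up into glutamine. H4K5ac-ChIP density over Slc1a2 was 0.672 RPKM in CON and 0.612 in FC, with 0.427 and 0.409 in IgG-IP and 0.494 and 0.534 in input. Over Slc1a3 it was 0.712 in CON and 0.790 in FC, with 0.426 and 0.444 in IgG-IP and 0.424 and 0.509 in input. Over Glul it was 0.731 in CON and 0.789 in FC, with 0.279 and 0.281 in IgG-IP and 0.435 and 0.531 in input. The 3 genes of glutamate handling had similar H4K5ac-ChIP densities, between 0.612 and 0.790 RPKM, and Glul stood apart by its low IgG-IP density, which rested on 45 reads in CON and 40 in FC.

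Aqp4 (chr18:15547903-15562193, minus strand) encodes the water channel of the astrocytic endfeet and Gja1 the connexin that joins astrocytes by gap junctions. Over Aqp4, H4K5ac-ChIP density was 0.471 RPKM in CON and 0.463 in FC, with 0.488 and 0.495 in IgG-IP and 0.503 and 0.561 in input. Over Gja1 it was 0.377 in CON and 0.458 in FC, with 0.425 and 0.398 in IgG-IP and 0.470 and 0.521 in input. At these 2 membrane proteins, of all 10 markers, the H4K5ac-ChIP density was not separated upward from IgG-IP or from input in either group. They lay above between 33.2% and 42.0% of protein-coding genes in the H4K5ac-ChIP libraries.

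Aldoc encodes the brain isoform of the glycolytic enzyme aldolase, Aldh1l1 an enzyme of folate metabolism and Apoe the main lipid carrier that astrocytes secrete. Over Aldoc, H4K5ac-ChIP density was 0.786 RPKM in CON and 0.940 in FC, with 0.416 and 0.400 in IgG-IP and 0.480 and 0.760 in input. Over Aldh1l1 it was 0.687 in CON and 0.677 in FC, with 0.400 and 0.379 in IgG-IP and 0.451 and 0.641 in input. Over Apoe it was 0.618 in CON and 1.06 in FC, with 0.317 and 0.405 in IgG-IP and 0.295 and 0.695 in input. Apoe was the member whose H4K5ac-ChIP and input densities differed most between FC and CON, and both differed in the same direction.

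**Figure D1:**
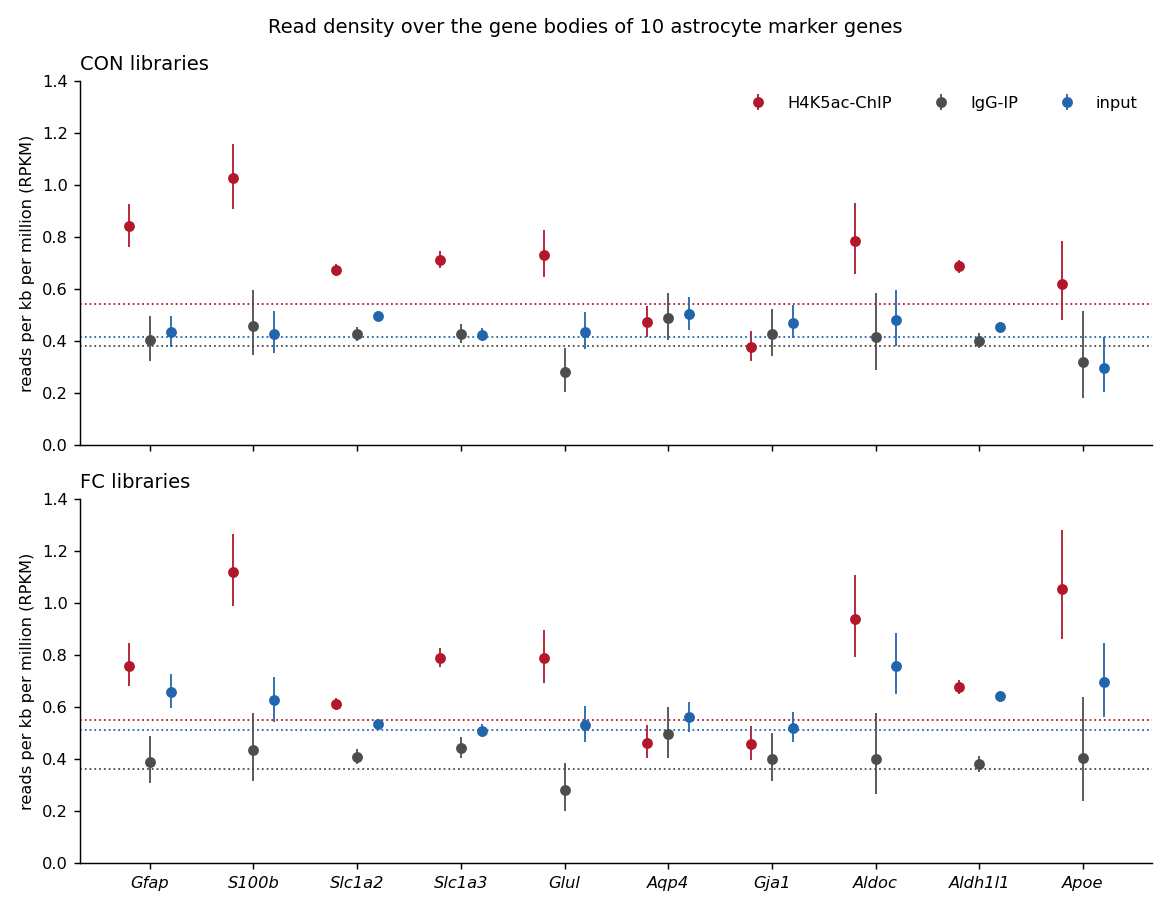
Read density over the gene body of each of the 10 markers, in RPKM, in the CON libraries (top) and the FC libraries (bottom). Points are the single H4K5ac-ChIP, IgG-IP and input libraries, bars are exact 95% Poisson intervals, and dotted lines are the medians of protein-coding genes; only at Aqp4 and Gja1 do the H4K5ac-ChIP points lie below the input points, in both groups.

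As ratios, the H4K5ac-ChIP density over the gene body was at least 1.5 times that of IgG-IP at 8 of 10 markers in CON and 7 of 10 in FC. This fold was reached by 51.9% of 19433 protein-coding genes with enough reads in CON and 56.2% of 19393 in FC. The log2 ratio was highest at Glul, at 1.39 in CON (interval 0.93 to 1.88) and 1.49 in FC (1.00 to 2.01). S100b had 1.17 (0.75 to 1.62) and 1.37 (0.92 to 1.86). Gfap followed in CON at 1.07 (0.73 to 1.41), with 0.96 in FC (0.60 to 1.34). The genes of glutamine synthetase, the calcium-binding protein and the filament were thus between 1.95 and 2.81 times the IgG-IP density in each group. At Aldoc the ratio was 0.92 in CON and 1.23 in FC, and at Apoe 0.96 and 1.38, which in FC was next after Glul. Aldh1l1, at 0.78 and 0.84, and Slc1a3, at 0.74 and 0.83, had narrow intervals because of their length. Slc1a2 lay on either side of the threshold, at 1.573-fold in CON and 1.495-fold in FC. At Aqp4 the log2 ratio was -0.05 in CON (-0.38 to 0.28) and -0.10 in FC (-0.45 to 0.26), and at Gja1 -0.17 (-0.54 to 0.21) and 0.20 (-0.19 to 0.61), so that all 4 intervals included 0. The median over the 10 markers was 0.85 in CON and 0.90 in FC, beside 0.61 and 0.71 for protein-coding genes.

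The ratio to IgG-IP moved with the GC content of a gene. Each marker was compared with all annotated genes, protein-coding or not, that had enough reads and lay within 1 percentage point of its GC content. The part of the genes that do not code for protein in these comparisons was not tested. The median over the markers was then 0.08 in CON and -0.01 in FC, and 5 of 10 markers lay above their GC-matched median in each group. None of the markers was then 1.5-fold above it in either group, a level passed by 13.3% of protein-coding genes in CON and 15.2% in FC. The largest excess over genes of the same GC content was 0.58 at Glul and 0.52 at S100b in CON, and 0.57 at S100b and 0.51 at Glul in FC. Gja1 and Aqp4 lay below their GC-matched medians, by -0.66 and -0.42 in CON and -0.36 and -0.47 in FC. Gfap, Aldoc, Aldh1l1 and Apoe lay between -0.15 and 0.18, so that Apoe, high in FC as measured, was not above genes of like base composition.

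Against input, the H4K5ac-ChIP density over the body was at least 1.5 times as high at 7 of 10 markers in CON and 3 of 10 in FC. Of protein-coding genes, 42.3% passed this fold in CON and 22.9% in FC. Relative to genes of the same GC content 1 marker in each group passed it, and with 1 read kept per position and strand 1 marker passed it in FC. No share of protein-coding genes is given for these settings, so these counts have no background. S100b had the highest ratio to input in both groups, with log2 values of 1.26 in CON (0.94 to 1.60) and 0.84 in FC (0.57 to 1.11). Slc1a3 and Apoe were the other markers past the fold in both groups, at 0.75 and 1.07 in CON and 0.63 and 0.60 in FC. At Aqp4 and Gja1 the ratio to input was below 0 in each group, between -0.32 and -0.09.

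**Figure D2:**
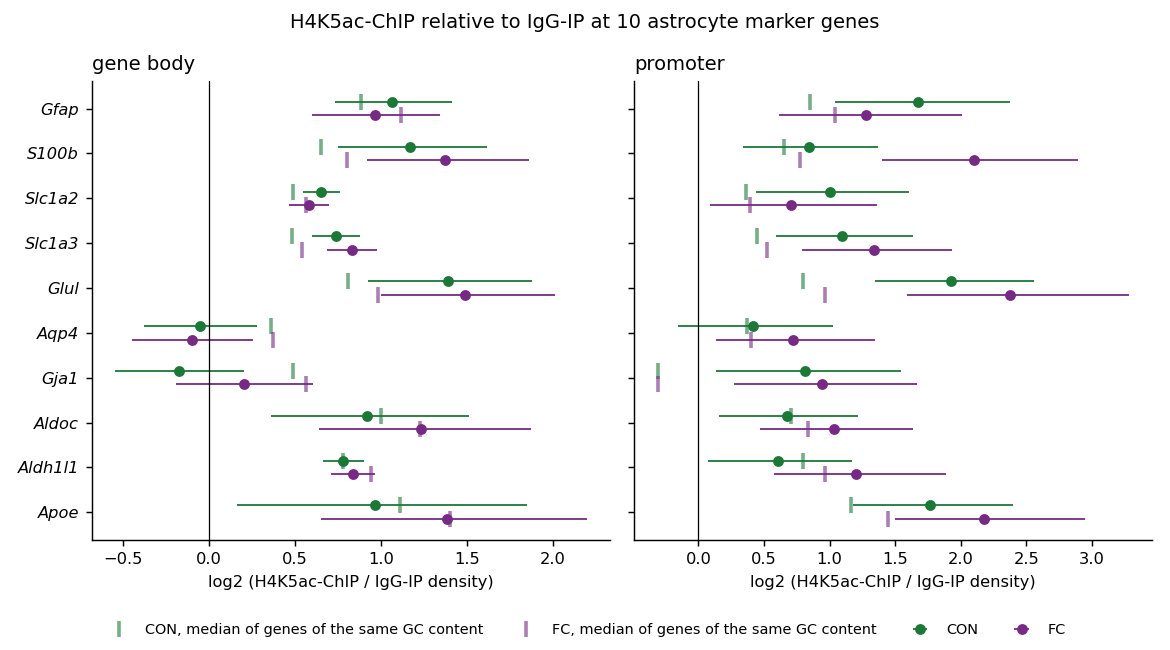
Log2 ratio of H4K5ac-ChIP to IgG-IP density at the 10 markers over the gene body (left) and the 5 kb upstream (right), for CON and FC. Points are ratios of single libraries with exact 95% intervals, and upright ticks are the medians of genes within 1 percentage point of GC content; over the gene body 5 of 10 points of each group lie to the right of their ticks, and over the promoter 8 of 10 CON points and all 10 FC points lie to the right of them.

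The promoter, taken as the 5 kb upstream of the gene, carried H4K5ac-ChIP reads at every marker. All 10 had more than 50 H4K5ac-ChIP reads there in both groups, with between 88 and 224 reads in CON and between 96 and 187 in FC, as did 75.3% of protein-coding genes in CON and 72.6% in FC. Glul was highest in CON, with 1.246 RPKM, and had 1.00 in FC, with 0.327 and 0.192 in IgG-IP and 0.507 and 0.679 in input. Apoe had 1.11 in CON and 1.18 in FC, with 0.327 and 0.261 in IgG-IP and 0.321 and 0.604 in input. Slc1a3 had 1.01 in CON and 1.11 in FC, with 0.473 and 0.440 in IgG-IP and 0.366 and 0.534 in input. These 3 upstream regions lay above at least 90.8% of protein-coding promoters in each H4K5ac-ChIP library. S100b had 0.890 in CON and 1.06 in FC, with 0.497 and 0.247 in IgG-IP and 0.485 and 0.701 in input. Gfap had 0.890 in CON and 0.734 in FC, with 0.279 and 0.302 in IgG-IP and 0.417 and 0.871 in input. The Gfap and S100b regions were thus alike in the CON H4K5ac-ChIP library, with 160 reads each. In FC the 5 kb before the Gfap gene start were denser in input than in H4K5ac-ChIP, a direction that turned with the window, since the log2 ratio of H4K5ac-ChIP to input was 0.06 (-0.29 to 0.41) before the coding start and 0.04 (-0.49 to 0.56) in the 2 kb before the gene.

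The median protein-coding promoter had 0.545 RPKM in CON and 0.557 in FC, and the remaining markers follow. Aldoc had 0.773 in CON and 0.899 in FC, with 0.485 and 0.440 in IgG-IP and 0.485 and 0.648 in input. Slc1a2 had 0.779 in CON and 0.626 in FC, with 0.388 and 0.385 in IgG-IP and 0.383 and 0.433 in input. Aldh1l1 had 0.701 in CON and 0.791 in FC, with 0.461 and 0.344 in IgG-IP and 0.558 and 0.587 in input. Of these enzymes and the glutamate transporter, Slc1a2 was the lower in FC and the other 2 the higher. Aqp4 had 0.551 in CON and 0.702 in FC, with 0.412 and 0.426 in IgG-IP and 0.394 and 0.60 in input. Gja1 had 0.489 in CON and 0.607 in FC, with 0.279 and 0.316 in IgG-IP and 0.428 and 0.390 in input. The water channel and connexin genes were thus lowest upstream as well in CON. There their H4K5ac-ChIP density was above IgG-IP in both groups, whereas over the body it was so only at Gja1 in FC. At Aqp4 in CON the upstream densities rested on 99 H4K5ac-ChIP and 34 IgG-IP reads. Their intervals, 0.447 to 0.670 RPKM and 0.286 to 0.576 RPKM, overlapped.

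The promoter H4K5ac-ChIP density was at least 1.5 times that of IgG-IP at 9 of 10 markers in CON and 10 of 10 in FC, a fold reached by 49.8% and 53.9% of protein-coding promoters. The log2 ratio was highest at Glul, at 1.93 in CON (1.35 to 2.56) and 2.38 in FC (1.59 to 3.28), and at Apoe, at 1.76 (1.18 to 2.40) and 2.18 (1.5 to 2.94). S100b had 0.84 in CON and 2.10 in FC, a difference that came with 41 IgG-IP reads in CON and 18 in FC. The median over the markers was 0.92 in CON and 1.24 in FC, beside 0.58 and 0.68 for protein-coding genes. Unlike the gene body, the promoter kept an excess relative to genes of the same GC content, with a median of 0.62 in CON and 0.53 in FC and with 8 of 10 and 10 of 10 markers above their GC-matched median. There 6 markers in CON and 5 in FC were at least 1.5-fold above it, as were 22.6% and 24.4% of protein-coding promoters. At Glul this excess was 1.13 in CON and 1.41 in FC, and at Gja1, whose upstream region had the lowest GC content of the set at 40.3%, it was 1.12 and 1.247. The Gja1 values rested on 23 IgG-IP reads in each group. Its upstream IgG-IP density lay above only 18.6% of protein-coding promoters in CON and 34.4% in FC. Its H4K5ac-ChIP density lay above 43.6% of them in CON and 55.4% in FC. Against input, 7 markers in CON and 4 in FC passed 1.5-fold, compared with 43.2% and 29.3% of protein-coding promoters. These counts were 4 in CON and 2 in FC relative to genes of the same GC content, and with a promoter of 2 kb 7 in each group. No share of protein-coding promoters is given for these settings, so these counts have no background.

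For the 2 genes with a distant annotated start, the 5 kb before the coding start gave other values. At Gfap the log2 ratio of H4K5ac-ChIP to IgG-IP there was 0.72 in CON and 0.75 in FC, in place of 1.67 and 1.28 before the gene start. At Aldh1l1 it was 0.65 in CON and 0.87 in FC, in place of 0.60 and 1.203. Both coding promoters lay below their GC-matched medians, by between -0.43 and -0.18. The promoter counts and medians relative to GC content given above take the 5 kb before the gene start for these 2 genes. The stretch of Aldh1l1 between the gene start and the coding start, upstream of the longest coding transcript, had an H4K5ac-ChIP density of 0.746 RPKM in CON and 0.723 in FC, with 0.411 and 0.399 in IgG-IP, close to that over the whole gene.

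The comparison of FC with CON addresses whether conditioning went with a different share of the H4K5ac-ChIP reads at these genes. Each density was divided by the aligned reads of its library, so a change in H4K5ac common to all genes was not measured. Western blots in the paper showed more of the mark in the hippocampus after conditioning than in controls. Log2 ratios near 0 therefore do not show that the level of the mark was unchanged. Over the gene body, Apoe was the only marker whose H4K5ac-ChIP density was at least 25% higher in FC than in CON, and none was at least 20% lower. Its log2 ratio of FC to CON was 0.77 (0.31 to 1.24), from 102 reads in FC and 68 in CON. Of these reads, 29.4% in FC and 10.3% in CON repeated another read's position and strand, which the interval does not take into account. With 1 read kept per position and strand, Apoe was still at least 25% higher in FC. In these libraries 10.8% of 19455 protein-coding genes were at least 25% higher in FC and 4.06% at least 20% lower. At Apoe the input libraries differed more than the H4K5ac-ChIP libraries, with a log2 ratio of 1.24 (0.65 to 1.86) from 97 reads in FC and 32 in CON, and the IgG-IP ratio was 0.35 (-0.70 to 1.42). Less the input difference, the Apoe value turned to -0.46, and the gene bodies past the thresholds were then 0 higher and 5 lower in FC, those of Gfap, Aldh1l1, Aldoc, Apoe and S100b. No share of protein-coding genes is given less the input difference, so this count has no background. Input itself was at least 25% higher in FC at 49.1% of protein-coding genes.

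The other 9 bodies lay between -0.15 and 0.28. Gja1 and Aldoc were next, at 0.28 (-0.02 to 0.58) and 0.26 (-0.09 to 0.61), and Gfap was lowest at -0.15 (-0.36 to 0.07). The intervals of the long transporter genes excluded 0 in opposite directions, with 0.15 at Slc1a3 (0.06 to 0.24; 1914 reads in FC and 1962 in CON) and -0.13 at Slc1a2 (-0.21 to -0.06; 2556 and 3191 reads). These intervals hold counting error only, and their size is to be read against the median shift of 0.04 over protein-coding genes. The IgG-IP ratios of the same genes were 0.06 and -0.06, and the input ratios 0.26 and 0.11. The median over the 10 bodies was 0.12.

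Over the promoter only Aqp4 passed these thresholds, at a log2 ratio of 0.35 (-0.05 to 0.76; 111 reads in FC and 99 in CON), with input at 0.61 (0.18 to 1.04). This call depended on the scaling. Scaled to the median of all genes, Aqp4 fell short of the threshold at 0.31, and 0 promoters were higher and 3 lower, with Glul at -0.36, Slc1a2 at -0.36 and Gfap at -0.32. Less the input log2 ratio 1 promoter was higher and 5 were lower, and less that of IgG-IP 5 were higher and 1 was lower. With a promoter of 2 kb 4 were higher and 1 was lower, and relative to genes of the same GC content 2 were higher and 2 lower. Of 21107 protein-coding promoters 17.5% were at least 25% higher in FC and 10.3% at least 20% lower, over the 5 kb and without these adjustments. No such share is given for the other settings, so their counts have no background. Gja1 was just short of the threshold at 0.31 (-0.12 to 0.75), and in the 2 kb before its start it was past it at 1.01 (0.29 to 1.76; 46 reads in FC and 26 in CON). In that 2 kb, 32.6% of the FC reads and 3.85% of the CON reads repeated another read's position and strand, which the interval does not take into account. On the other side were Glul at -0.32 (-0.62 to -0.02), Slc1a2 at -0.31 (-0.70 to 0.07) and Gfap at -0.28 (-0.64 to 0.08). The remaining 5 promoters lay between 0.09 and 0.26, so that 7 promoters were above 0 and 3 below, beside 57.8% of protein-coding promoters above 0. Slc1a2 and Gfap were lower in FC over both the body and the promoter, whereas Glul was lower over the promoter only.

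The input libraries themselves differed between the groups at these genes. Input density over the body was higher in FC at 10 of 10 markers and at 72.9% of protein-coding genes, with a median log2 ratio of 0.40 beside 0.31 for protein-coding genes, and 5 markers were at least 25% higher, a level reached by 49.1% of 20883 protein-coding genes. Relative to genes of the same GC content, the input ratio lay between -0.27 and 0.11 at the 9 markers other than Apoe, where it was 0.55. At the Gfap promoter the input ratio was 1.06 (0.67 to 1.47; 199 reads in FC and 74 in CON), above 98.7% of protein-coding promoters. The part of the input libraries in the ratios above was not tested beyond these values.

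**Figure D3:**
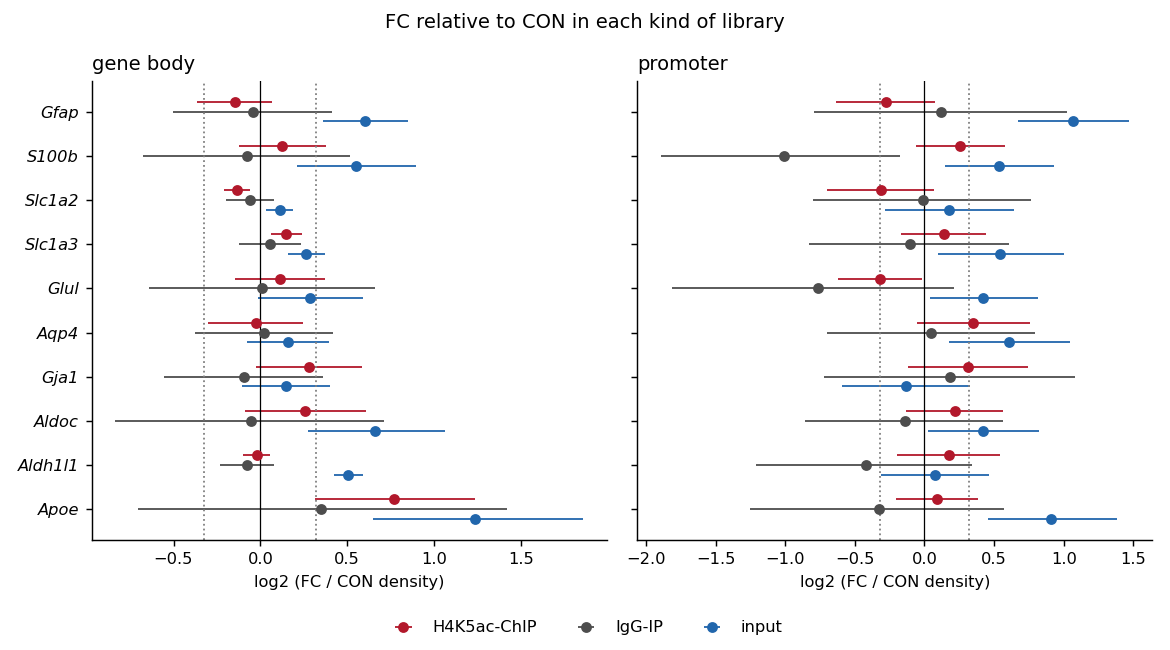
Log2 ratio of FC to CON density at the 10 markers in the H4K5ac-ChIP, IgG-IP and input libraries, over the gene body (left) and the 5 kb upstream (right). Points compare 1 FC with 1 CON library, bars are exact 95% intervals and dotted lines mark 25% higher and 20% lower; most H4K5ac-ChIP points lie within the dotted lines, and the input points lie to the right of 0 at all gene bodies.

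Within Slc1a3 the acetylation was uneven in the same places in both groups. This gene, divided into 4 equal parts in the direction of transcription, had H4K5ac-ChIP densities of 0.769, 0.582, 0.927 and 0.581 RPKM in CON and 0.844, 0.690, 0.971 and 0.661 in FC. IgG-IP densities in the same parts were 0.402, 0.453, 0.396 and 0.456 in CON and 0.506, 0.448, 0.445 and 0.384 in FC. Input densities were 0.435, 0.385, 0.447 and 0.432 in CON and 0.464, 0.505, 0.515 and 0.554 in FC. Parts 1 and 3 were the highest in both H4K5ac-ChIP libraries and also in CON input, over a narrower range, but not in IgG-IP or FC input. In tiles of 1 kb, the densest run of 5 neighbouring tiles was centred 49.5 kb after the start of Slc1a3 in both groups, at 1.30 RPKM in CON and 1.29 in FC. IgG-IP there was 0.340 and 0.550, and input 0.535 and 0.626. The sparsest run was also the same in both groups, centred at 33.5 kb, with 0.417 in CON and 0.468 in FC. IgG-IP at 0.327 and 0.234 and input at 0.344 and 0.429 were low there too, so the low density was not particular to H4K5ac-ChIP. The GC content was 46.5% in the densest and 40.6% in the sparsest run.

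Across the tiles of each long gene and its upstream 5 kb, read counts of the FC and CON H4K5ac-ChIP libraries varied together. Spearman's rho was 0.63 over 81 tiles of Slc1a3, 0.57 over 118 tiles of Aldh1l1 and 0.45 over 137 tiles of Slc1a2. For the IgG-IP libraries it was 0.07, 0.05 and 0.02, and for input 0.08, 0.20 and 0.18, in the same order. The tiles of a gene share base composition and mappability, and the IgG-IP tiles held fewer reads, whose part in the lower rho was not tested. With tile GC content, rho of the CON H4K5ac-ChIP counts was 0.23 in Slc1a3, 0.12 in Aldh1l1 and 0.29 in Slc1a2, and of the FC counts 0.30, 0.24 and 0.44. In the same order, rho of the input counts with GC content was 0.07, -0.13 and 0.13 in CON and 0.32, 0.36 and 0.37 in FC. For the IgG-IP counts it lay between -0.12 and 0.02. In Slc1a2 the densest run was centred at 46.5 kb in CON, at 1.05 RPKM, where FC had 0.987, and at 15.5 kb in FC, at 1.16, where CON had 0.923. In Aldh1l1 it was centred at -10.862 kb from the coding start in CON, at 1.08, where FC had 0.823, and at -64.862 kb in FC, at 1.06, where CON had 0.856. The sparsest runs differed as well, centred at 121.5 kb in CON and 51.5 kb in FC in Slc1a2, and at -31.862 kb and 6.138 kb in Aldh1l1. At -31.862 kb the FC H4K5ac-ChIP density was 0.405, close to its lowest of 0.380, and CON IgG-IP at 0.255 and CON input at 0.299 were low as well.

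The tiles divide the same reads, and so restate the differences over whole genes. Of the tiles of all 10 markers, 419 held enough H4K5ac-ChIP reads, of which 53 were at least 1.5-fold higher in FC and 60 at least 1.5-fold lower. That is 12.6% and 14.3%, against 13.0% and 15.3% of 868061 tiles of protein-coding genes. In Slc1a2, 14 of 134 tiles were higher and 32 lower in FC, and in Slc1a3, 12 of 79 were higher and 1 lower. Aldh1l1 had 14 higher and 17 lower of 114. As shares these are 10.4% and 23.9% in Slc1a2 and 15.2% and 1.27% in Slc1a3, so that tiles lower in FC were more frequent than the background in the first gene and rarer in the second. Among the 7 shorter genes the single densest tile was the same in both groups at 2 and differed at 5. It was shared at Gfap, centred 8.718 kb after the coding start with 1.31 RPKM in CON and 1.80 in FC, and at S100b, 3.5 kb after it with 1.36 and 1.68.

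**Figure D4:**
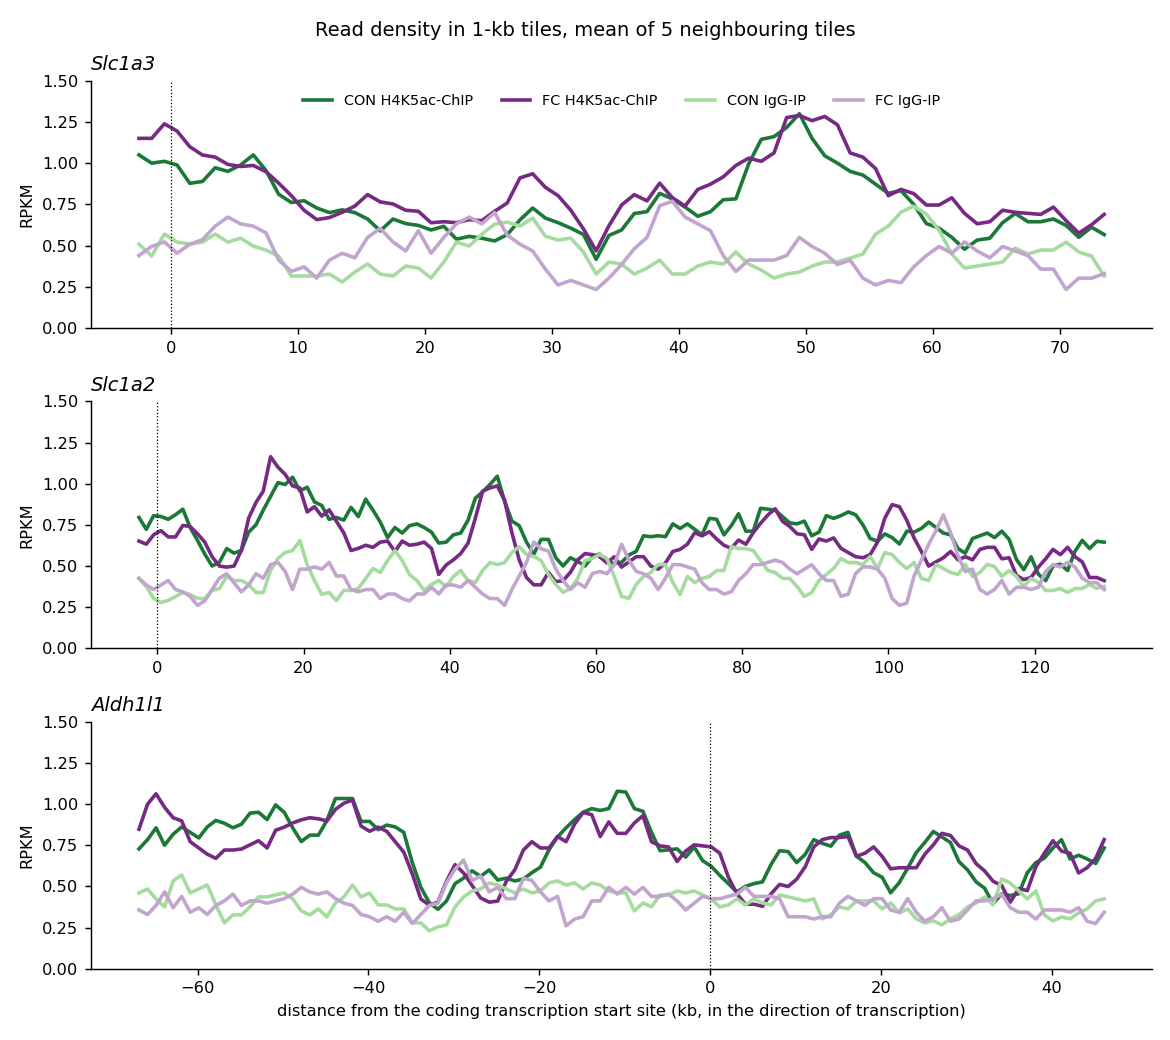
Read density along Slc1a3 (top), Slc1a2 (middle) and Aldh1l1 (bottom), in RPKM as the mean of 5 neighbouring 1-kb tiles, against the distance from the coding transcription start site in kb. Dark lines are the H4K5ac-ChIP libraries and pale lines the IgG-IP libraries of CON and FC; the H4K5ac-ChIP lines of both groups share the rise near 49.5 kb in Slc1a3.

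Around the coding start, the densities of the markers were compared on either side. In bins of 500 bp, the median CON H4K5ac-ChIP density over the markers lay between 0.723 and 1.06 RPKM in the 5 kb before the start and between 0.556 and 0.862 in the 5 kb after it, while that of protein-coding genes lay between 0.389 and 0.667. In FC the medians over the markers lay between 0.696 and 1.08 before the start and between 0.633 and 1.04 after it, ranges that nearly coincide. The CpG-rich promoters had a lower density after the start than before it. At Glul the kb before held 41 reads and the kb after 21 in CON, and 34 and 15 in FC, giving log2 ratios of after to before of -0.97 (-1.80 to -0.17) and -1.18 (-2.16 to -0.27). At Slc1a2 the counts were 25 and 12 in CON and 27 and 14 in FC, with ratios of -1.06 (-2.19 to -0.01) and -0.95 (-1.99 to 0.03). The drop was thus about 2-fold at both genes in both groups, at the edge of counting error at Slc1a2.

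The 8 promoters below a CpG ratio of 0.6 had log2 ratios of after to before between -0.64 and 0.40 in CON and between -1.22 and 0.44 in FC. S100b had 39 and 34 reads in CON and 47 and 39 in FC, with log2 ratios of -0.20 (-0.91 to 0.50) and -0.27 (-0.92 to 0.37). Aldoc had 36 and 39 in CON and 36 and 29 in FC, with 0.12 (-0.58 to 0.81) and -0.31 (-1.07 to 0.43). At Aqp4 and Gja1, also below 0.6, the ratios were 0.40 (-0.52 to 1.34) and 0.12 (-1.13 to 1.38) in CON, but -1.22 (-2.33 to -0.20) and -1.11 (-2.18 to -0.11) in FC, from between 12 and 28 reads a side. Input went the other way in FC at both, with 0.63 (-0.07 to 1.36) at Aqp4 and 0.40 (-0.39 to 1.21) at Gja1. The intervals of Gfap (0.16 in CON and 0.44 in FC), Slc1a3 (-0.64 and -0.22), Aldh1l1 (-0.14 and 0.16) and Apoe (-0.58 and -0.16) all included 0. In FC the drops at Aqp4 and Gja1 were as large as those at Glul and Slc1a2, and the intervals of S100b and Aldoc overlap those of the CpG-rich genes. Over all protein-coding genes with enough reads, the median ratio was -0.57 in CON and -0.44 in FC where the CpG ratio was at least 0.6, and -0.05 and 0.00 where it was lower. The input libraries moved the same way in part, with medians of -0.26 and -0.21 in the CpG-rich class, and at Glul input was also lower after the start, at -0.34 (-1.42 to 0.71) in CON and -0.56 (-1.54 to 0.39) in FC. At Slc1a2 input was higher after the start, at 0.65 (-0.85 to 2.26) in CON and 0.55 (-0.55 to 1.69) in FC, and all 4 of these intervals included 0.

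The 250 bases before the coding starts were searched on both strands for short sequences that transcription factors of astrocytes are known to bind. TTCNNNGAA, the core bound by STAT factors, stood at 2 of 10 markers, from -71 to -63 in Gfap and from -139 to -131 in Slc1a3, and in 6.77% of 22362 promoters. TTGGC, part of the site of nuclear factor I, stood at 5 markers, Slc1a2, Aldoc, Glul, Apoe and S100b, and in 41.9% of promoters. In Glul and S100b some of these overlap CCAAT, the box bound by NF-Y, which stood at 5 markers and in 34.8% of promoters. GGGCGG, bound by Sp1, stood at 3 markers and in 41.0% of promoters, TGANTCA, bound by AP-1, at Gja1 and in 5.87%, ACAAAG, bound by Sox factors, at Apoe and in 15.0%, and TATAAA at Slc1a3 and in 12.2%. TGACGTCA, the full site of CREB, stood in none of the 10 and in 1.95% of promoters. These matches describe letters in the window and not bound sites.

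The markers were set beside lists of genes of other cell types of the hippocampus and of other organs. Over the gene body the median log2 ratio of H4K5ac-ChIP to IgG-IP was 0.85 in CON and 0.90 in FC for the markers, 0.80 in each group for 49 other astrocyte genes, 0.52 and 0.60 for 19 neuronal genes, 0.59 and 0.82 for 15 oligodendrocyte genes and 0.30 and 0.51 for 17 microglial and vessel genes. For 19 genes of liver, skin, muscle and other organs it was 0.58 in CON and 0.98 in FC. As measured, the markers were thus not separated in FC from genes of other organs. Relative to genes of the same GC content, the markers and the other astrocyte, neuronal and oligodendrocyte lists lay close to 0 and to each other, between -0.01 and 0.16. The microglial and vessel genes (-0.46 in CON and -0.52 in FC) and the genes of other organs (-0.34 and -0.21) lay below.

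Over the promoter the markers had the highest median log2 ratio to IgG-IP of the 6 lists, at 0.92 in CON and 1.24 in FC, although the oligodendrocyte genes were near, at 0.87 and 1.203. The marker median takes the 5 kb before the gene start at Gfap and Aldh1l1, where the values before the coding start differed. The other astrocyte genes had 0.89 and 0.85, the neuronal genes 0.49 in each group, the microglial and vessel genes 0.22 and 0.17, and the genes of other organs 0.61 and 0.53. Relative to genes of the same GC content the markers were at 0.62 in CON and 0.53 in FC and the other astrocyte genes at 0.27 and 0.19. The oligodendrocyte genes were at 0.30 and 0.26, the neuronal genes at 0.14 and 0.05, the microglial and vessel genes at -0.41 and -0.48, and the genes of other organs at -0.05 and -0.15. Against input, also relative to GC content, the oligodendrocyte genes at 0.46 lay above the markers at 0.38 in FC. In CON the markers were at 0.48 and the oligodendrocyte genes at 0.02. Each list is described by its median, and the difference between the lists was not tested.

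The other astrocyte genes are given by their extremes. Averaged over FC and CON, the highest log2 ratios to IgG-IP over the body, among genes with at least 20 IgG-IP reads in each group, were 1.69 at Atp1b2, a subunit of the sodium pump, 1.62 at Kcnj10, the potassium channel of astrocytes, and 1.55 at Ttyh1, a chloride channel. The lowest were -0.64 at Slc39a12, a zinc transporter, -0.61 at Chrdl1, a secreted antagonist of bone morphogenetic proteins, and -0.39 at Bmpr1b, a receptor for them. Between FC and CON, 4 of the 49 were at least 25% higher in H4K5ac-ChIP over the body and 1 at least 20% lower, beside 10.8% and 4.06% of protein-coding genes. Over the promoter 3 of the 49 were higher and 3 lower, beside 17.5% and 10.3% of protein-coding promoters.

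**Figure D5:**
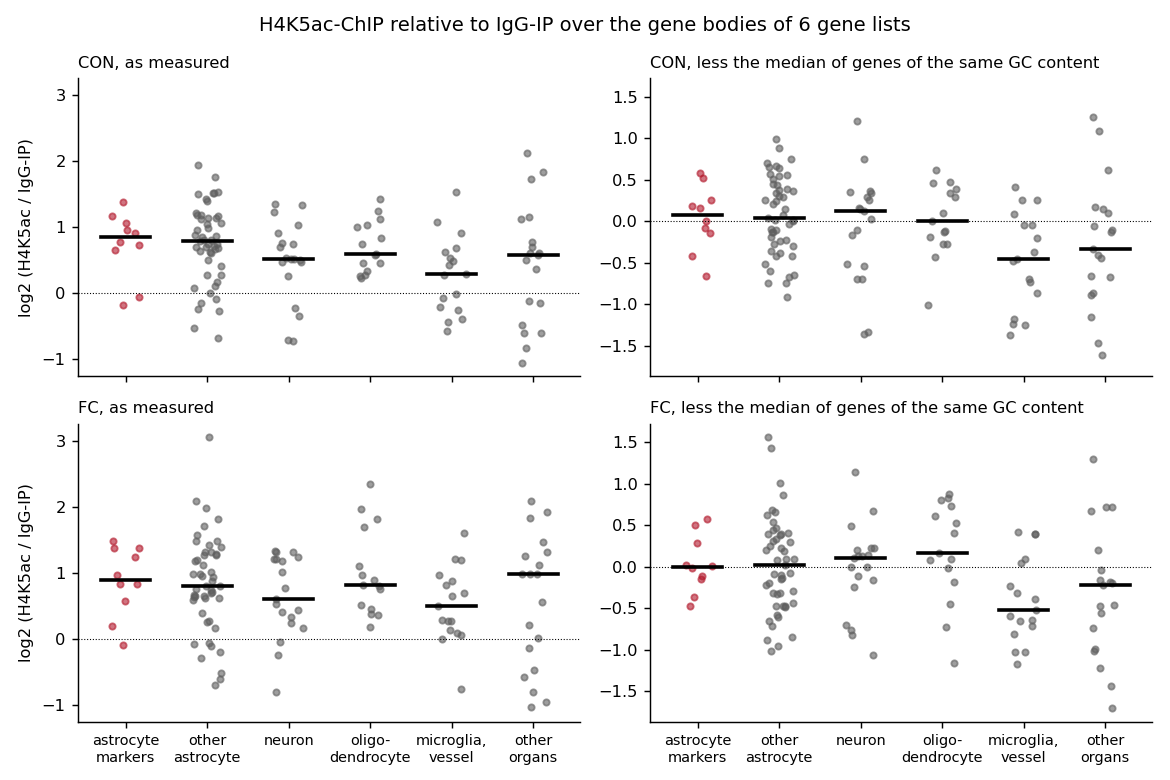
Log2 ratio of H4K5ac-ChIP to IgG-IP density over the gene body for the 10 markers and 5 other gene lists, in CON (top) and FC (bottom), as measured (left) and less the median of genes within 1 percentage point of GC content (right). Each point is 1 gene, the bars are list medians and the sideways scatter carries no value; on the right the microglial and vessel list and the list of other organs have medians below 0.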

How the data were processed

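Chromatin from mouse hippocampus was immunoprecipitated with an antibody to H4K5ac (Millipore) or with IgG, or kept as input, and sequenced on the SOLiD platform. Per the study's methods, the authors aligned the colour-space reads to mm9 with Bioscope. The deposited files list each aligned read, of 25 to 50 bp, with its position, strand and a mapping quality score assigned by the authors' aligner. Mapping quality was at least 20 for 88.0% to 92.7% of the reads, and no read lay past the end of a chromosome of the NCBIM37 genome.

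Reads were counted from the deposited lines where they overlapped a gene body, from the first start to the last end of the gene in the GENCODE annotation of NCBIM37, or its 5 kb upstream, by at least 1 bp. All aligned reads were kept. Counts were divided by region length and by all aligned reads of the library. Ratios have exact 95% binomial intervals, densities exact Poisson intervals. A gene entered a comparison with at least 20 reads in the pair of libraries. Medians relative to GC content were taken over all annotated genes that entered, protein-coding or not. Shares of genes past a fold are descriptions: with 1 library per group and antibody there was no test. The counting and intervals were tested on simulated data. Python 3.11.15, NumPy 2.4.6, SciPy 1.17.1, pandas 2.3.3 and matplotlib 3.10.9 were used. The 10 members, the lists and the thresholds were chosen with earlier results of these data known. All members were named, and of the other astrocyte genes the 3 highest and 3 lowest by ratio to IgG-IP. Map2, Myrf and Amy2b did not match a protein-coding gene and were left out of their lists. Values under other settings are given in the closing section.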

Additional observations from a re-analysis of the deposited data

Results flagged for a closer look

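At 2 places the H4K5ac-ChIP library lay above its control library in one group and below it in the other. Gja1 had a log2 ratio to IgG-IP over its body of 0.20 in the FC libraries and of -0.17 in the CON libraries, and both 95% intervals, which cover counting error only, included 0. Over the 5 kb before Gfap the log2 ratio of H4K5ac-ChIP to input was -0.25 for FC, against 1.09 for CON. Before the coding start it was 0.06 for FC and 1.14 for CON, and in the 2 kb before the gene 0.04 and 1.62, so the change of sign was not seen with those windows. At that place the H4K5ac-ChIP libraries held 116 reads in FC and 160 in CON, and the input libraries 199 and 74, so the input counts differed by more than the H4K5ac-ChIP counts. Neither difference between the groups was tested, since each group had 1 library of each kind.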

How the results depend on the processing

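Of 85 recomputed counts of markers, 59 stayed within 1.5 times the reported count and 26 did not. Shares of protein-coding genes under the other settings are given above only for the ratio to IgG-IP relative to GC content. The other counts below have no background. Relative to genes of the same GC content, the markers at least 1.5 times above IgG-IP over the gene body went from 7 to 0 in FC and from 8 to 0 in CON, and over the promoter from 10 to 5 in FC. Against input the same setting left 1 marker in FC and 1 in CON over the gene body, and 2 in FC and 4 in CON over the promoter, and between FC and CON it gave 4 promoters past the threshold. With a 2-fold threshold 4 gene bodies in FC and 3 in CON passed against IgG-IP, 0 and 2 against input, and 1 promoter in FC against input and 5 in CON against IgG-IP. A promoter of 2 kb gave 7 markers above input in FC and 5 past the threshold of 25% higher or 20% lower between the groups. With 1 read kept per position and strand, 1 gene body in FC passed against input and 2 promoters differed between the groups, and a mapping quality of at least 20 or assignment of reads by midpoint also gave 2. Between FC and CON, subtracting the input difference gave 5 gene bodies, all lower in FC, and 6 promoters past it, of which 5 were lower, where the reported calls were both higher. Subtracting the IgG-IP difference gave 2 gene bodies, both higher, and 6 promoters, of which 5 were higher. Scaling to the median of all genes gave 3 promoters, all lower and without Aqp4, and a 1.5-fold threshold 0 promoters. The counts of more than 50 promoter reads stayed within 1.5 times under every setting run, and so did every count with the longest coding transcript, a setting chosen after seeing the data.

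Of 610 recomputed log2 values of single markers, 523 stayed within the counting interval of the reported value and 11 turned their sign after having passed the fold. Relative to genes of the same GC content, the ratio to IgG-IP over the gene body became -0.15 at Gfap, -0.11 at Aldh1l1 and -0.0178 at Apoe in FC, and -0.00077 at Aldh1l1, -0.0796 at Aldoc and -0.15 at Apoe in CON. In CON the ratio to input over the body of Aldoc became -0.0586, and the promoter ratio to IgG-IP became -0.19 at Aldh1l1 and -0.0341 at Aldoc. Less the input libraries, the ratio of FC to CON became -0.46 over the body of Apoe and -0.25 over the promoter of Aqp4. No paired analysis was possible because the groups share a single replicate number and no result comes from a test. Depth limits the promoter ratios to IgG-IP, which rest on between 14 and 41 IgG-IP reads each.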
